A study of Mus musculus with 12 samples.

Results

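The nuclear genes for the subunits of oxidative phosphorylation were examined in mouse mast cells grown with and without stem cell factor. They were taken as the probe sets whose single annotated gene symbol begins as the names of subunits do: Nduf with a subunit letter and digit, Sdha to Sdhd, Uqcr, Cox4 to Cox8, or Atp5. This gave 164 of 45101 probe sets and 81 of 18194 genes, of which 151 probe sets and 76 genes passed a filter on dim signals. A further 9 probe sets carry such a symbol beside others and were left out. The 5 genes that stayed below the filter were Cox4i2, Cox8b, Cox8c and Ndufa4l2, which are paralogues of other subunits, and Ndufb4. By complex, the 81 genes comprise 33 of complex I, 4 of complex II, 8 of complex III, 18 of complex IV and 17 of complex V, together with Cox7a2l. Cox7a2l shares its symbol with a complex IV subunit but is known as a factor that joins complexes III and IV, so it is kept apart here.

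The cells were mast cells derived from the bone marrow of C57BL/6 mice, measured on 12 single-colour Affymetrix arrays. In one group of 6 samples the cells were kept in interleukin 3 (IL3, 30 ng/ml), and the labels give 4 to 6 weeks of culture and a purity above 99% by toluidine blue staining and by FceRIa and KIT. In the other 6 the culture also held stem cell factor (SCF, the ligand of the receptor tyrosine kinase KIT, 100 ng/ml unless indicated otherwise). All samples therefore share IL3, and the comparison asks what SCF on top of it changes. Whether the replicates of a group came from separate cultures or animals is not in the labels. The p-values therefore describe the spread among these 12 samples, some or all of which may be technical.

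Oxidative phosphorylation passes electrons from NADH through complex I, and from succinate through complex II, to coenzyme Q, then through complex III and cytochrome c to complex IV, which reduces oxygen. Complexes I, III and IV pump protons across the inner mitochondrial membrane, and complex V, the ATP synthase, lets them return and makes ATP. All complexes but the second combine subunits from nuclear and mitochondrial genes, and several nuclear subunits exist as paralogues made in different tissues. Mast cells draw on both glycolysis and respiration, and mitochondrial ATP is known to matter for their degranulation.

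A signal here is the deposited intensity of a probe set, and changes are differences of log2(signal + 16), IL3+SCF minus IL3, which understate the change of dim genes. Each gene is given by its brightest kept probe set, and signals of different probe sets share no scale. All 10 mast cell markers were above the dim level, the 40th percentile of an array, on all 12 arrays, and 1 of them, the protease gene Mcpt4, was called. The summed signal of 7 monocyte and macrophage markers, which bright probe sets dominate, lay between 12780 and 17440 with IL3 and between 4095 and 5115 with SCF, and none of the 7 was dim on all arrays. Of 6 tested, Cx3cr1, Lyz1 and Lyz2 fell, with changes of -3.90, -1.96 and -1.59, Cd68 rose by 1.28, and Adgre1 (0.04) and Ccr2 (-0.23) were not called. The remaining marker, Csf1r, was below the filter and dim on 5 arrays of each group, with median signals of 58.2 with IL3 and 55.0 with SCF. The summed signal of 10 neutrophil granule markers reached 5725 on IL3 replicate 3 and 7166 on replicate 6. It was 328 to 1209 on the remaining IL3 arrays and 214 to 365 with SCF. Of the 10, 8 were above the dim level on at least 1 IL3 array, but only 1, Mmp8, on any SCF array. Mmp8 was the only 1 tested and was not called, and 2 of the 10 were dim on all arrays. The summed signal of 5 eosinophil and basophil markers was 6287 on IL3 replicate 1 and 1414 to 2719 on the other IL3 arrays. With SCF it was 1393 to 2207. Epx was dim on all arrays, and 0 of the 3 tested were called by limma. The part of these other-cell signals in the results below was not tested, except that counts without IL3 replicates 3 and 6 are given. In such bulk RNA, fewer cells of a type and less RNA per cell cannot be told apart, and precision is limited by how many arrays there are.

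Most of the subunit genes differed little between the cultures. Of 76 tested, 8 were higher with SCF, 3 were lower and 65 were not called (limma, Benjamini-Hochberg adjusted p below 0.05 over all 11429 genes). That is 14.5% called, where 35.4% of all genes were, 18.9% higher and 16.6% lower. After median centring of the arrays 2 were higher and 3 lower (6.58%, against 24.3% of all genes). Without IL3 replicate 5 they were 13 and 3 (21.3%, against 38.6%). Without IL3+SCF replicate 2 they were 6 and 6 (15.8%, against 32.3%). Without IL3 replicates 3 and 6 they were 4 and 3 (9.33%, against 26.9%). The median change of the 76 genes was -0.01 and of all genes 0.02. The median size of a change, whatever its sign, was 0.08 for the subunit genes and 0.18 for all genes.

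For each gene the fit gives an interval for the change of its brightest probe set in these 12 samples. The interval does not bound the gene's other probe sets, of which those of some uncalled genes moved farther. Examples are Ndufs4 at -1.11 and Uqcr10 at 0.55 (below). The 95% interval of the change lay within 0.5 on the log2 scale of 0 for 69 of the 76 genes (90.8%), as it did for 63.2% of all genes tested, and within 0.25 for 48. Of the 65 uncalled genes, 62 had an interval within 0.5. Their changes lay between -0.25 and 0.26. The standard error had a median of 0.07 over the subunit genes and 0.09 over all genes. By the mean signal of their probe set, 31 of the 76 subunit genes lie at 10000 or more, a class in which 26% of all genes and 16.1% of these were called. In the class from 3000 to 10000 the shares were 36.5% of all genes and 13.9% of 36 subunit genes. The 6 arrays of each culture did not overlap for 5 subunit genes, or 5 of 76, against 19.1% of all genes. These were Ndufa6 and Atp5d, higher with SCF, and Cox7c, Ndufa5 and Ndufa12, lower.

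**Figure D1:**
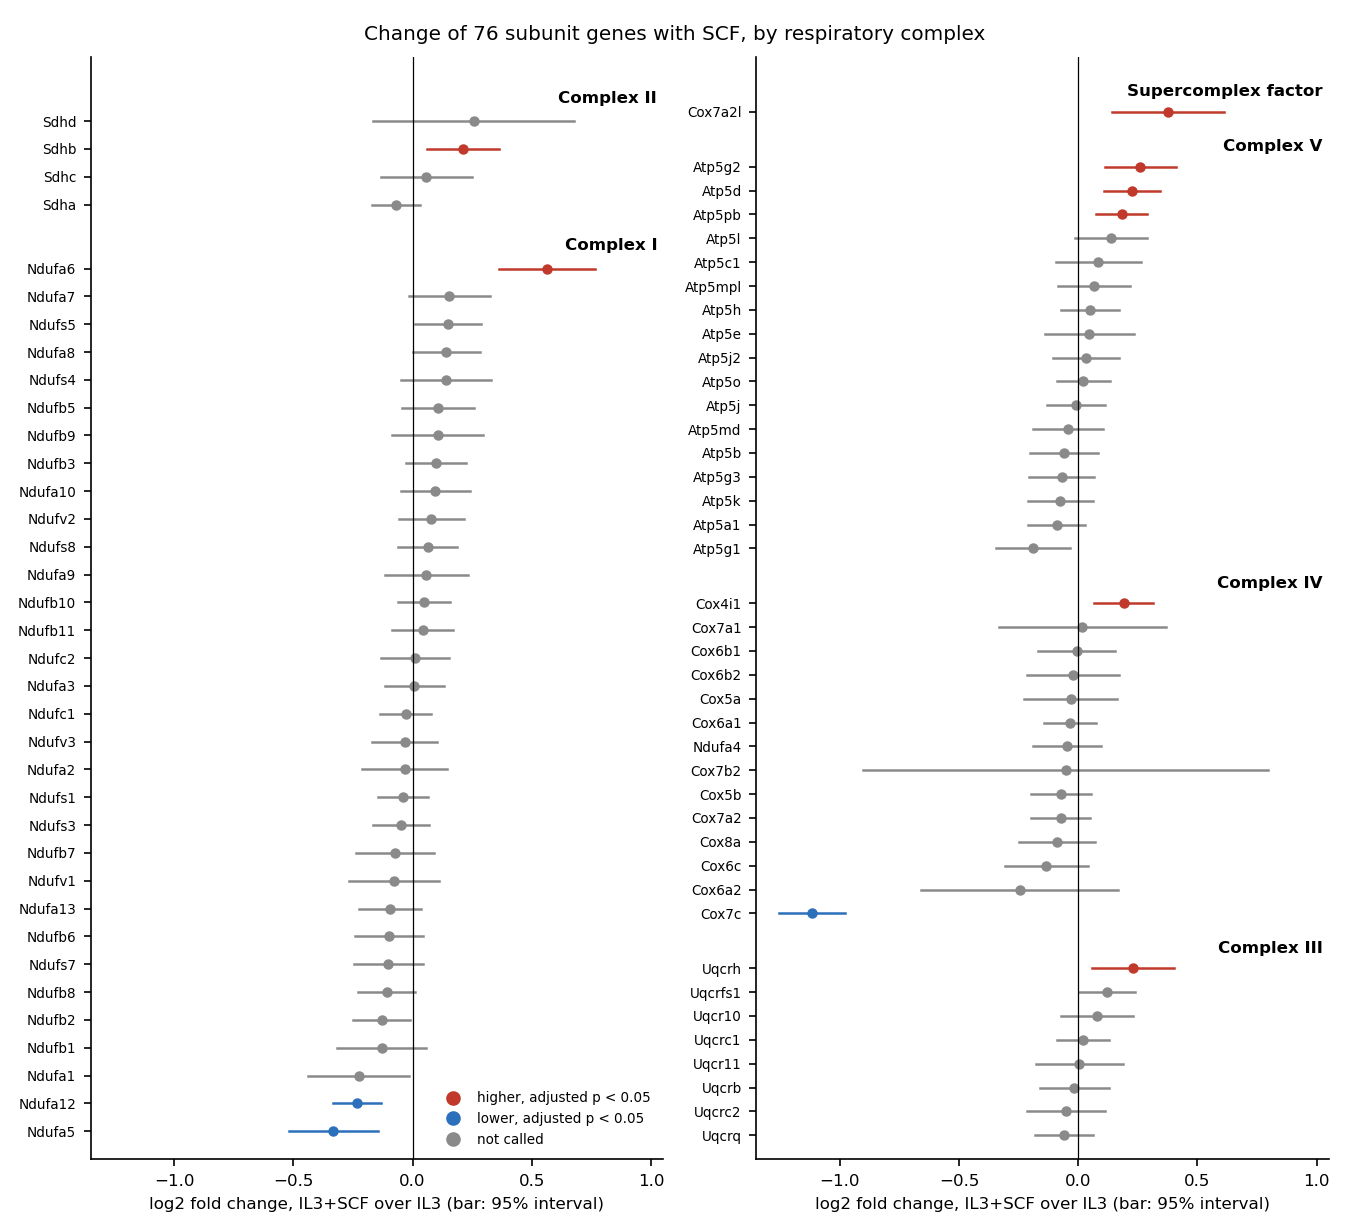
The log2 change with SCF (horizontal axis) is plotted for 76 subunit genes, grouped by complex, with a bar for the 95% interval and colour for the call. Cox7c at -1.12 and Ndufa6 at 0.56 lie farthest from 0, and 74 of the 76 points lie within 0.5 of it.

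Cox7c and Ndufa6 carried the largest fall and rise, and the sequences before their start sites are shown for comparison with those of 3 other subunit genes that hold motif letters there. Genes of this set are textbook targets of the nuclear respiratory factor NRF1 and of ETS-family factors such as GABP, and YY1 sites are also known in them. The letters searched on both strands were GCGCANGCG for NRF1, CCGGAAG for ETS factors and AAGATGGCG for YY1, in RefSeq windows of 300 bases (250 before to 50 after the start, GRCm38.p6), which were found for 66 of the 81 genes. NRF1 letters were in 18 of the 66 (27.3%), in 15.8% of genes tested on the arrays with a window and in 7.03% of all genes with one. ETS letters were in 25.8%, 20.7% and 9.93%, and YY1 letters in 9.09%, 3.72% and 1.64%. At least 1 of the 3 was in 34 of the 66 subunit windows (51.5%), in 35% of those of tested genes and in 16.5% of all. The 250 bases before the start are printed below 5′ to 3′ on the gene's strand, which is the minus strand for all 5 genes, with matches in capitals. The windows lie at chr15:82354292-82354541 for Ndufa6, chr13:86046796-86047045 for Cox7c, chr15:102671048-102671297 for Atp5g2, chr5:115348959-115349208 for Cox6a1 and chr11:115419920-115420169 for Atp5h.
Ndufa6: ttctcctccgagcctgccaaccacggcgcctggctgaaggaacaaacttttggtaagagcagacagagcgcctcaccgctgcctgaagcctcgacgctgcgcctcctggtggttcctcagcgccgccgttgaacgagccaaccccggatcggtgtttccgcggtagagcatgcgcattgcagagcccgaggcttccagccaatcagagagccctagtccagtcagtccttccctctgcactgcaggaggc
Cox7c: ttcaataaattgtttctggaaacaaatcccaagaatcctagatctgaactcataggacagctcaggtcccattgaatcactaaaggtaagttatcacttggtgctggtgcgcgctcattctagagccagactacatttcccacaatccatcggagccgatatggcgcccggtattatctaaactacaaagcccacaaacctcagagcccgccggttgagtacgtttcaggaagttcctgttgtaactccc
Atp5g2: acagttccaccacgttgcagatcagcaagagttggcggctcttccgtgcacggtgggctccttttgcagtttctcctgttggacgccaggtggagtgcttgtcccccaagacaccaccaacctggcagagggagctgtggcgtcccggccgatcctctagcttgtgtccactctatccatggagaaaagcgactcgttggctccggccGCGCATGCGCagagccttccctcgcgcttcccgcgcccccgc
Cox6a1: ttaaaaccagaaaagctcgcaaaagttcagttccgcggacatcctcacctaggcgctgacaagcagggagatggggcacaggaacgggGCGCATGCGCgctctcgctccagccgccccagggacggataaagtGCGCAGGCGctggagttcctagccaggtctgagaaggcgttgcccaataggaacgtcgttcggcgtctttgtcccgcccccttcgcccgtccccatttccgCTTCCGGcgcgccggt
Atp5h: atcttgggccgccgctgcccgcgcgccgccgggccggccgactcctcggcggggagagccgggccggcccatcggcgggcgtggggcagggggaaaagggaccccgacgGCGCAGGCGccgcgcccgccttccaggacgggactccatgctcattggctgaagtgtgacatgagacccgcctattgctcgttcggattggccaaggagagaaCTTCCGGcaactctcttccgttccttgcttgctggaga
In the Atp5g2 window the NRF1 letters occur 42 bases before the start. They read GCGCATGCGC, which matches on both strands with overlap. The same 10 letters begin 162 bases before the start of Cox6a1, which also holds GCGCAGGCG at 117 and the ETS letters, as CTTCCGG on this strand, at 16. Atp5h holds GCGCAGGCG at 141 and CTTCCGG at 38. Ndufa6 holds NRF1 letters on the opposite strand in the part of the window that is not printed, at bases 25 to 33 counted from 1 at the start, and is among the 18 genes. Its printed 250 bases hold no match, and Cox7c has none in its 300 bases, which says only that these letters are not there. Ndufa6 and Atp5g2 rose (below), while Cox6a1 and Atp5h had changes of -0.03 and 0.05 and were not called. Ndufa5, not printed but also among the 18 genes, fell (below). Whether these letters go with a change was not tested.

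Complex I, the NADH dehydrogenase, had 1 risen and 2 fallen genes among 32 tested, with a median change of -0.01. The nuclear core subunits carry the flavin and the iron-sulfur clusters or help to bind them, and of the 6 core genes here 0 were called by limma, nor did any reach an unadjusted p below 0.05. These are Ndufv1, Ndufv2, Ndufs1, Ndufs3, Ndufs7 and Ndufs8, and their changes lay between -0.10 and 0.08. All 3 calls were among the 26 accessory subunits, which surround the core and are needed for its assembly and stability.

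Ndufa6, a small accessory subunit of the matrix arm that binds mitochondrial acyl carrier protein, rose. Its signal was 6330 at the lowest, 6764 at the median and 8498 at the highest of the 6 IL3 arrays. With SCF these were 8521, 10600 and 11950. Every SCF array lay above every IL3 array, although IL3 replicate 5 at 8498 and IL3+SCF replicate 1 at 8521 nearly met. The log2 change was 0.56 ± 0.09 (SE, n = 6 each, adjusted p = 0.000487), a fold change of 1.48, and it rests on the only probe set of the gene.

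Ndufa5, another accessory subunit of the matrix arm, fell. The IL3 signals ran from 4804 over a median of 5266 to 7241, and the SCF signals from 4216 over 4323 to 4578. The highest IL3 value, of replicate 5, stood apart from the others, which ended at 5534, and the groups did not overlap. The change was -0.33 ± 0.09 (adjusted p = 0.00904), and a dimmer probe set gave -0.18, which was not called.

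Ndufa12, an accessory subunit of the matrix arm related to the assembly factor Ndufaf2, fell on all 4 of its probe sets. On the brightest the IL3 signals were 7726, 8265 and 8548 (lowest, median, highest), and the SCF signals 6627, 7009 and 7463. No SCF array reached the lowest IL3 array. The change was -0.23 ± 0.05 (adjusted p = 0.00177). The other probe sets gave -0.22, -0.39 and -1.66, with standard errors of 0.06, 0.08 and 0.30. The largest fall, far from the others, came from the dimmest of them, with signals of 328 to 1076 with IL3 and 123 to 329 with SCF.

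The 29 uncalled genes of complex I had changes between -0.23 and 0.15. At the low end was Ndufa1, a membrane-arm subunit encoded on the X chromosome, with signals of 7720 to 11830 with IL3 and 7049 to 9003 with SCF (change -0.23, adjusted p = 0.0905), and called lower without IL3 replicate 1 (-0.28, adjusted p = 0.0314). At the high end were Ndufa7, Ndufs5 and Ndufa8 at 0.15, 0.15 and 0.14. All 6 SCF arrays lay above the IL3 median for each of these 3, and all 3 were called higher without IL3 replicate 5, at 0.22, 0.19 and 0.18, as were Ndufs4 at 0.20 and the complex V gene Atp5l at 0.18 (adjusted p between 0.0128 and 0.0414 for the 5).

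Complex II, succinate dehydrogenase, feeds electrons from the tricarboxylic acid cycle and has no mitochondrially encoded subunit. Of its 4 genes 1 rose, Sdhb, the iron-sulfur subunit that passes electrons on to coenzyme Q. Its IL3 signals were 3320, 3663 and 4004 (lowest, median, highest), and its SCF signals 3652, 4494 and 4514. The SCF replicates 1 and 5 lay within the IL3 range and the other 4 above it. The change was 0.21 ± 0.07 (adjusted p = 0.0319). The call was lost in 12 of 25 other settings, among them 7 of the 12 in which a single array was left out (numbers 2, 3 and 6 of the IL3 arrays, and 2, 3, 4 and 6 of the SCF arrays), with adjusted p up to 0.203. Sdhd, a membrane anchor, had a larger but uncertain difference of 0.26 ± 0.19 (95% interval -0.17 to 0.68). Its SCF signals ran from 5566 over 6908 to 12760 against 5168, 6474 and 7595 with IL3, and the high SCF values were those of replicates 5 and 6. The dimmer probe set of Sdhd gave 0.18 ± 0.07 (95% interval 0.03 to 0.34) and was not called (adjusted p over probe sets 0.0703). The flavoprotein gene Sdha and the anchor gene Sdhc had changes of -0.07 and 0.06.

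Complex III, the cytochrome bc1 complex, had 1 risen gene of 8, with a median change of 0.01. Uqcrh, the hinge protein that aids electron transfer to cytochrome c, had IL3 signals of 14260, 15860 and 19340 and SCF signals of 16950, 19450 and 20630. The IL3 value of 19340 was that of replicate 5, and 3 SCF arrays (replicates 1, 5 and 6) lay below it. The change was 0.23 ± 0.08 (adjusted p = 0.0405). In the fit over all probe sets neither of its probe sets was called (adjusted p = 0.0531 and 0.0519), and the gene's call was lost in 14 of 25 other settings, 9 of them with a single array left out (all IL3 arrays but number 5, and numbers 2, 3, 4 and 6 of the SCF arrays), with adjusted p up to 0.226. The core proteins Uqcrc1 and Uqcrc2 had changes of 0.02 and -0.05. The Rieske iron-sulfur protein Uqcrfs1, which carries electrons from coenzyme Q, had 0.12 (95% interval 0.00 to 0.24, adjusted p = 0.101).

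Complex IV, cytochrome c oxidase, held the largest change of all 76 genes. Cox7c, a small membrane-spanning structural subunit, had IL3 signals of 2272, 2559 and 2690 and SCF signals of 1084, 1102 and 1278. The highest SCF array lay far below the lowest IL3 array. The change was -1.12 ± 0.06 (adjusted p = 1.09e-07), which leaves 0.461 of the IL3 signal. The dimmer probe set fell as well, from 451 ± 91.7 to 235 ± 33.5 (SD, n = 6), a change of -0.88 (adjusted p over probe sets 0.000428). The brighter one has the suffix _s_at, which marks probes that can match more than 1 transcript, so what part of its signal comes from Cox7c itself is uncertain. Such a suffix, or _x_at, is carried by the brightest probe set of 19 of the 76 genes, 2 of them called higher and 2 lower.

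Cox4i1, the widely expressed form of a regulatory subunit that binds ATP, rose. Its signals were 12750, 13580 and 14780 with IL3 and 14270, 15650 and 16650 with SCF. One SCF array, replicate 1, lay below the highest IL3 array, replicate 5. The change was 0.19 ± 0.06 (adjusted p = 0.0189). Its paralogue Cox4i2, the form of lung and hypoxic cells, was dim on all 12 arrays.

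The other 12 tested genes of complex IV were not called, and 11 of their changes were below 0, between -0.25 and -0.01, the exception being Cox7a1 at 0.02. The median for the complex was -0.05. Among paralogues, Cox6a1 and Cox6a2 had -0.03 and -0.25, Cox6b1 and the testis form Cox6b2 had -0.01 and -0.02, and Cox7a1 and Cox7a2 had 0.02 and -0.07. Cox6a2 was weak, with signals of 131 to 252 with IL3 and 82.4 to 199 with SCF, and dim on 1 SCF array. Its interval was -0.66 to 0.17. Cox7a1 was also weak, with signals of 136 to 286 with IL3 and 143 to 243 with SCF. Cox7b2 had -0.05 with an interval of -0.90 to 0.80, being dim on 2 IL3 and 4 SCF arrays. Cox6c had -0.13 and Cox8a -0.09, while Cox8b and Cox8c were below the filter. Ndufa4, a subunit of this complex despite its name, had -0.05, and its paralogue Ndufa4l2, a gene induced by hypoxia, was below the filter.

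Cox7a2l, the supercomplex factor, rose on all 3 of its probe sets, by between 0.35 and 0.38. C57BL/6 mice are known to make a shortened form of this protein. On the brightest the IL3 signals were 11600, 16690 and 18510 and the SCF signals 17050, 21410 and 22820. The low values of both groups were single arrays, IL3 replicate 5 and IL3+SCF replicate 1, and the latter lay within the IL3 range. The change was 0.38 ± 0.11 (adjusted p = 0.0169). The gene was called in all 25 other settings, as were Ndufa6, Cox7c, Ndufa5 and Ndufa12, with adjusted p for Cox7a2l between 0.00635 and 0.0433.

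Complex V, the ATP synthase, had 3 risen and 0 fallen genes of 17, with a median of 0.03. At an unadjusted p below 0.05 in limma, 1 was lower, Atp5g1. The catalytic head genes Atp5a1 and Atp5b had changes of -0.09 and -0.06 and were not called.

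Atp5d, the delta subunit of the rotating central stalk, had IL3 signals of 15440, 16480 and 17630 and SCF signals of 18050, 18990 and 20780. All SCF arrays lay above all IL3 arrays. The change was 0.23 ± 0.05 (adjusted p = 0.00637), and its other probe set gave 0.26 and was also called. After median centring of the arrays the gene had 0.20 and was no longer called (adjusted p = 0.161).

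Atp5pb, subunit b of the stationary peripheral stalk, had IL3 signals of 14820, 15450 and 16750 and SCF signals of 16630, 17610 and 19050. All SCF arrays but replicate 5 lay above the highest IL3 array, replicate 5. The change was 0.18 ± 0.05 (adjusted p = 0.0114). Its other probe set also gave 0.18 and was called (adjusted p over probe sets 0.02). After median centring the gene had 0.16 (adjusted p = 0.244). Cox4i1 then had 0.17 (adjusted p = 0.208). Without IL3 replicates 3 and 6 the calls of Atp5pb and Cox4i1 were lost (changes 0.16 and 0.17, adjusted p = 0.0607 and 0.0754).

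**Figure D2:**
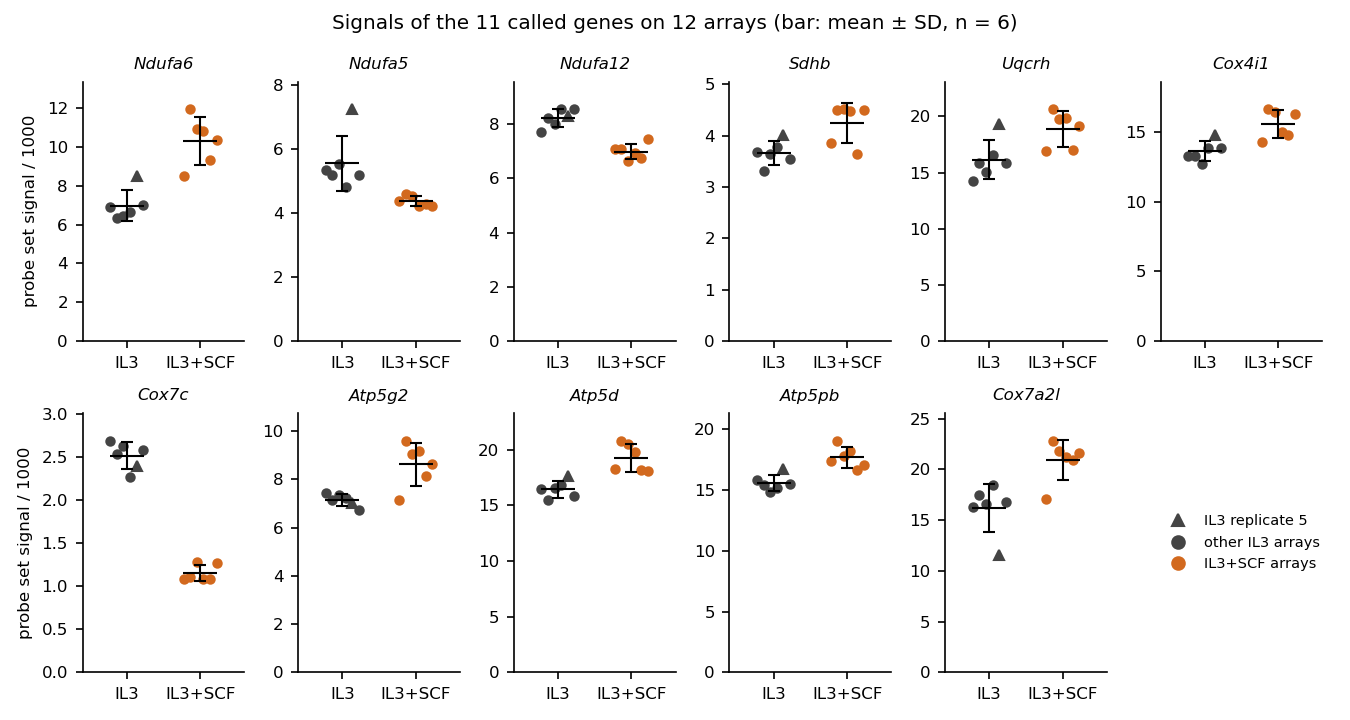
Probe set signals divided by 1000 (vertical axes, from 0) are plotted for the 11 called genes on the 6 IL3 and 6 IL3+SCF arrays, with a bar for mean and SD and a triangle for IL3 replicate 5. That array is the highest IL3 array for Ndufa6 at 8498 and Ndufa5 at 7241 and the lowest for Cox7a2l at 11600.

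The c subunits form the ring that protons turn, and 3 nuclear genes, Atp5g1, Atp5g2 and Atp5g3, encode the same mature protein behind different import sequences. Atp5g2 rose, with IL3 signals of 6734, 7203 and 7424 and SCF signals of 7154, 8832 and 9599 (change 0.26 ± 0.07, adjusted p = 0.0101). IL3+SCF replicate 1 lay in the IL3 range and the other 5 above it. The call was lost after median centring (0.24, adjusted p = 0.0796) and with the more variable of its 2 probe sets (0.33, adjusted p = 0.0739). Atp5g1 had 5245, 5792 and 6359 with IL3 and 4267, 5192 and 5609 with SCF (change -0.19 ± 0.07, adjusted p = 0.0583), and all 6 SCF arrays were below the IL3 median. It was called lower in 4 other settings (adjusted p between 0.0362 and 0.046), namely a filter at the 60th percentile, a trended and robust variance model, and without IL3 replicate 2 or IL3+SCF replicate 2. Atp5g3 had 16030, 17040 and 18890 with IL3 and 14730, 16340 and 18400 with SCF (-0.07 ± 0.06, adjusted p = 0.425).

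Because ratios within an array do not depend on how arrays are scaled, the paralogues were also compared as log2 ratios on each array, in 8 pairs chosen after these values were seen. The log2 ratio of the Atp5g2 to the Atp5g1 signal rose from 0.31 ± 0.12 with IL3 to 0.76 ± 0.18 with SCF (SD, n = 6), a difference of 0.45 (exact permutation test over arrays, two-sided, p = 0.00649, adjusted over 8 pairs 0.0173). The ratio of Atp5g2 to Atp5g3 rose by 0.33 (exact permutation p = 0.00649, adjusted 0.0173). The 2 ratios share Atp5g2. Both calls were lost with the most variable probe set of each gene (adjusted p = 0.0606 and 0.0866) and without IL3 replicates 4 and 5 (0.0762 for both). The ratio of Atp5g3 to Atp5g1 rose by 0.12 and did not pass (exact permutation p = 0.0476, adjusted 0.0952), but passed without IL3 replicate 2 (difference 0.15, adjusted 0.0173).

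The ratio of Cox7a2l to its paralogue Cox7a2 rose by 0.45 with no overlap of the groups, from -1.25 to -0.53 on the IL3 arrays and from -0.50 to -0.10 on the SCF arrays (exact permutation p = 0.00217, which is the lower limit for this design, adjusted 0.0173). The other 4 pairs did not pass (adjusted p between 0.391 and 0.868). Their differences were -0.21 for Cox6a2 to Cox6a1, -0.01 for Cox6b2 to Cox6b1, -0.09 for Cox7a2 to Cox7a1 and 0.36 for Cox7a2l to Cox7a1. The signals of Cox6a2 and Cox7a1 were weak (above).

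Relative to the scaling of the arrays, the subunit genes as a whole had the same mean level in both cultures. All 12 arrays have the same trimmed mean signal (below), so a change shared by all genes could not be seen. The mean log2 signal over the 76 genes was 12.75 ± 0.08 with IL3 and 12.75 ± 0.06 with SCF (SD, n = 6), while that over all genes tested was 10.51 in both. The lowest, median and highest arrays were at 12.69, 12.72 and 12.90 with IL3 and at 12.64, 12.76 and 12.83 with SCF. IL3 replicate 5 was the highest of the 12, and it held the highest IL3 signal for 58 of the 76 genes. Within the SCF group, replicate 2 held the highest signal for 49. By complex the group means lay close together as well. Complex IV had a mean of 12.01 ± 0.13 with IL3 and 11.89 ± 0.06 with SCF, and complex II one of 12.32 ± 0.07 and 12.43 ± 0.10. Complexes I, III and V had 12.70 and 12.70, 12.66 and 12.70, and 13.51 and 13.54.

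**Figure D3:**
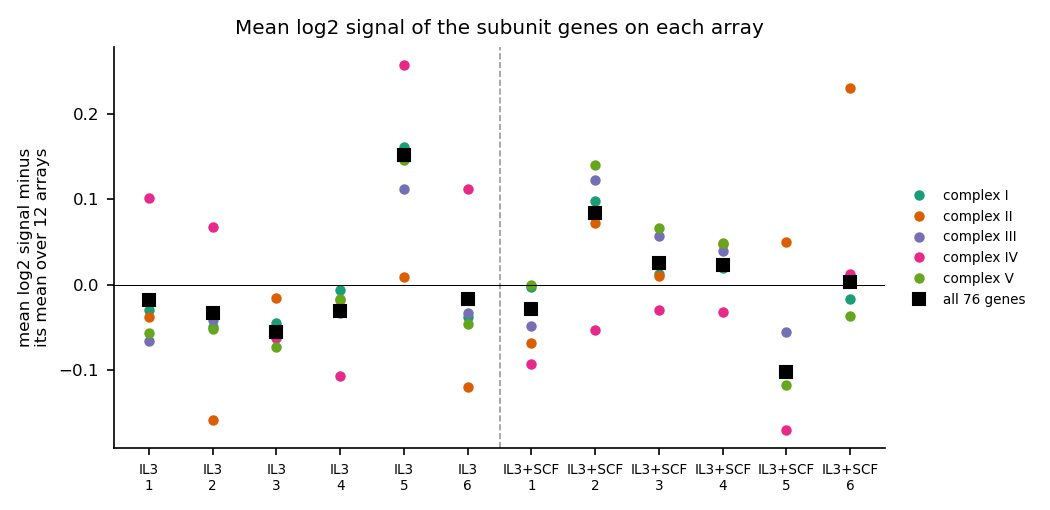
The mean log2 signal of the subunit genes on each of the 12 arrays is plotted minus its mean over the arrays, for each complex (dots) and for all 76 genes (squares). IL3 replicate 5, at 12.90 before subtraction, is the highest array, and the 2 groups have the same mean of 12.75.

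Probe sets other than the brightest told a partly different story. Over all kept probe sets, 16 of 151 subunit probe sets were higher and 12 lower, 18.5% called, where of all kept probe sets 30.9% were called, 17.3% higher and 13.6% lower. The brightest probe sets gave 10 calls of 76, and the other 75 gave 18, with 9 in each direction. Of 37 uncalled genes with a further kept probe set, 10 had one that was called, 5 higher and 5 lower.

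The 5 lower cases were all probe sets with a mean signal under 1000, though above the dim level on every array, of genes whose brightest probe set had a change between -0.09 and 0.14. For Ndufs4, an accessory subunit whose loss gives a mouse model of Leigh syndrome, the brightest probe set had 0.14, a weak one -1.11 and the other 2 had 0.07 and 0.00. The weak one went from 344 ± 55.8 with IL3 to 152 ± 32.0 with SCF (adjusted p over probe sets 7.87e-05). For Ndufa3, another accessory subunit of complex I, these were 0.01 and -0.71 (537 ± 71.7 and 323 ± 39.7). For Uqcrq, a small subunit of complex III, they were -0.06 and -0.78 (509 ± 86.7 and 291 ± 67.5). The remaining 2 were complex IV genes, Cox8a with -0.09 and -0.63 and Cox5b with -0.07 and -0.35.

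The 5 higher cases were Uqcr10, Atp5c1, Ndufs8, Ndufb11 and Sdhc, whose brightest probe sets had between 0.04 and 0.08. Uqcr10, a small subunit of complex III, had a weak probe set at 0.55, from 447 ± 40.7 to 660 ± 59.5 (adjusted p over probe sets 0.000243). Atp5c1, the gamma subunit that forms the rotor shaft, had one at 0.45, Ndufs8 one at 0.29, Ndufb11 one at 0.22 and Sdhc one at 0.18.

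Below a mean signal of 1000, 8 of 24 subunit probe sets were called, 1 higher and 7 lower. That is 33.3%, against 28.4% of all kept probe sets in that class, 16.1% higher and 12.4% lower. At 10000 and over, 7 of 47 were called, all 7 higher (14.9%), against 21.9% of all, 9.99% higher and 11.9% lower. These are the 3 probe sets of Cox7a2l, the 2 of Atp5pb, and the brightest of Atp5d and of Cox4i1, so they stand for fewer genes. Which transcript form or sequence these weak probe sets read was not tested.

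**Figure D4:**
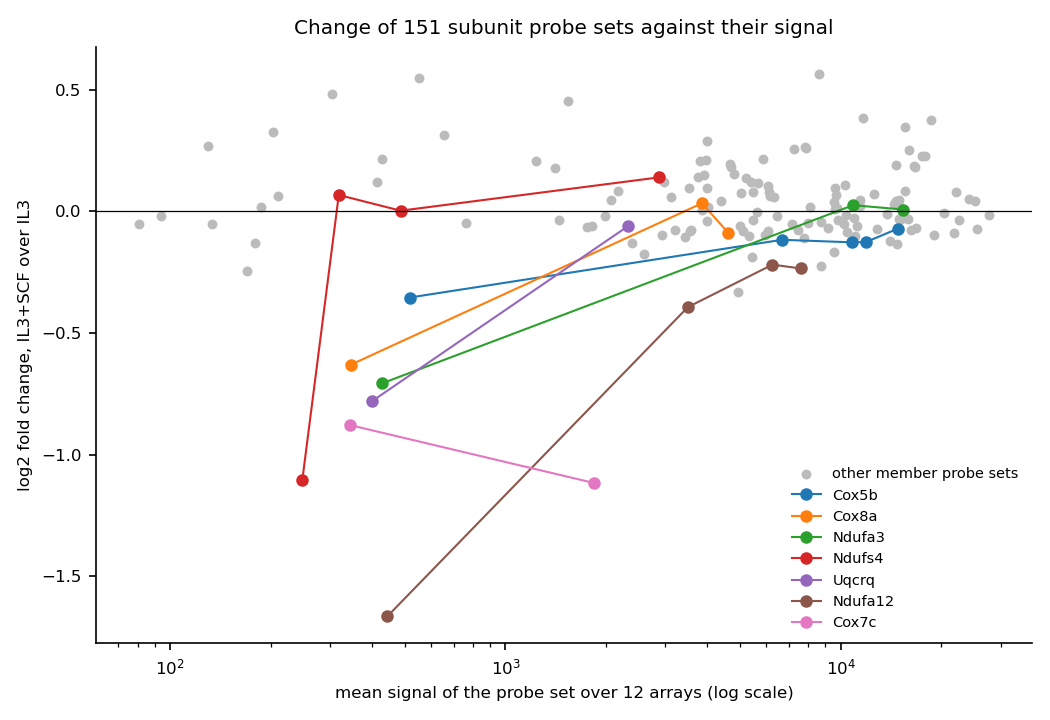
The log2 change of 151 subunit probe sets (vertical axis) is plotted against their mean signal (log scale), and lines join the probe sets of 7 genes in which one with a mean signal under 1000 fell. The weak probe sets of Ndufa12 at -1.66 and Ndufs4 at -1.11 lie far below the brighter ones of the same genes.

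Genes that build, feed or regulate the complexes were counted in the same fit, in which 35.4% of all genes were called, or 24.3% after median centring. Of 8 further subunits, carriers and related genes with symbols outside the rule, among them cytochrome c and cytochrome c1, 1 rose. This was the transhydrogenase gene Nnt, a related gene, at 0.26 ± 0.06. The median of the 8 was -0.07. Median centring of the arrays ended the call of Nnt. Of 47 assembly factors 8 rose and 3 fell (23.4%, median 0.07), and 4 and 2 after median centring. Coa6, a copper chaperone factor of complex IV, rose by 0.56 ± 0.10 and Uqcc3, a factor for complex III, by 0.45 ± 0.07. Ndufaf4, a factor for complex I, fell by 0.43 and Cox18, which inserts a complex IV subunit into the membrane, fell by 0.33.

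Coenzyme Q carries electrons from complexes I and II to complex III, and of 12 genes of its synthesis 5 fell and 1 rose (50%, against 35.4% of all genes, median -0.14). Coq7, a hydroxylase of the pathway, fell by 0.66 ± 0.08 (adjusted p = 6.96e-05), from signals of 919 to 1284 with IL3 to 621 to 741 with SCF. Coq2, which joins the ring to its side chain, fell by 0.44 ± 0.07 (adjusted p = 0.000322). Neither gene overlapped between groups, and both were called in all other settings. The 1 risen gene, Coq10b, a coenzyme Q binding protein, had 0.26 on its brightest and -0.12 on another probe set. Among the fallen genes, Coq8a had -0.28 on its brightest and 0.02 on another probe set, and Pdss2 had -0.19 and 0.01. The fallen Coq2, Coq6 and Coq7 had no further kept probe set. Median centring left 2 fallen and 0 risen genes.

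Of 19 genes of the tricarboxylic acid cycle and pyruvate entry 1 rose and 2 fell (15.8%), and 0 and 1 did after median centring. The fallen genes include Idh3a, the catalytic subunit of NAD-dependent isocitrate dehydrogenase, at -0.41 ± 0.10. Idh3b, a partner subunit, had 0.17 and Fh1, fumarase, -0.14, both calls that many other settings lost. Of 21 genes of mitochondrial biogenesis and mitochondrial DNA expression 3 rose and 4 fell (33.3%, against 35.4% of all genes), and 1 and 2 did after median centring. The coactivator gene Ppargc1b had -0.37, from signals of 180 to 279 with IL3 to 154 to 209 with SCF, and the nuclear receptor gene Esrra 0.32. Myc, a transcription factor of growth, had -0.34 and the DNA polymerase gene Polg 0.20. On another probe set Esrra had 0.10 and Polg 0.06, while Ppargc1b and Myc had no further kept probe set. Each of these 4 calls was lost in at least 1 other setting.

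Of 28 protein import genes 2 rose and 4 fell (21.4%), and 1 and 2 did after median centring, with Pam16, a subunit of the import motor, at 0.29 ± 0.05 and Timm8a1, an intermembrane chaperone, at -0.43 ± 0.09. Timm10b had 0.29 on its brightest probe set and between -0.06 and 0.31 on others. Hspa9, the matrix Hsp70, had -0.25 and between -0.39 and -0.0004 on others, while Timm8a1 had -0.315 on another. Among 11 tested genes for nucleotide and phosphate carriers, outer membrane channels and antioxidant enzymes 1 rose (9.09%), Slc25a4, an ADP/ATP carrier that exports the ATP made by complex V. Its signals were 6219 to 8347 with IL3 and 8468 to 9893 with SCF without overlap, and its change was 0.45 ± 0.08 (adjusted p = 0.000617) with 0.39 and 0.41 on other probe sets.

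Of 76 mitochondrial ribosome genes, whose products translate the mitochondrially encoded subunits, 14 rose and 10 fell (31.6%, against 35.4% of all genes, median 0.03), and 5 and 5 did after median centring. Mrps6 rose by 0.69 ± 0.06 and Mrps28 fell by 0.69 ± 0.11, and both were called in all other settings. Mrpl48 had 0.45 on its brightest probe set and between -0.57 and 0.40 on others, and Mrps5 had -0.46, a call that 10 other settings lost. The mitochondrially encoded subunits themselves were not analysed here.

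**Figure D5:**
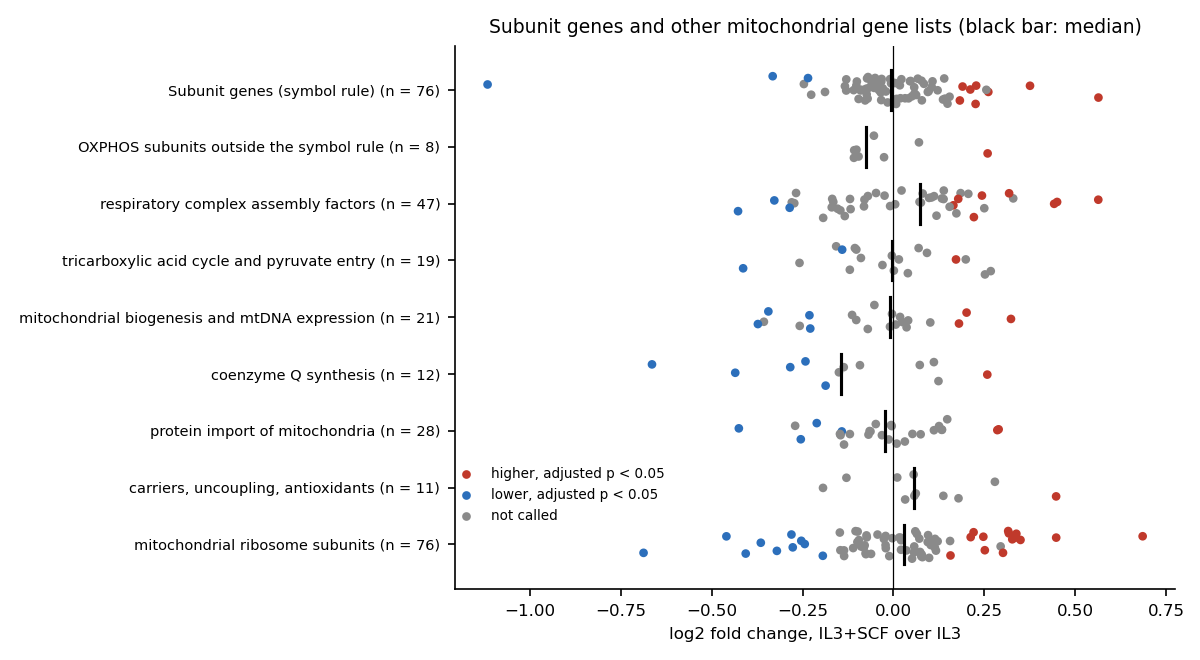
The log2 change with SCF (horizontal axis) is plotted for each gene of the subunit set and of 8 other mitochondrial lists, coloured by call, with a black bar for each median and points spread vertically for legibility. The list medians lie between -0.14, for coenzyme Q synthesis, and 0.07, for assembly factors.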

How the data were processed

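Total RNA of 12 mast cell samples, amplified with the WT-Ovation system per the labels' protocols, was read on 12 arrays. The authors deposited 1 linear intensity for each probe set and array. The submitters' processing notes name GCOS 1.4, while how background was corrected and to which target arrays were scaled is not given in the sources used here. Trimmed by 2% at both ends, every array has a mean of 1250.01. The medians of the arrays lie within 0.39 on the log2 scale, and since this is less than 0.5 no quantile normalization was applied to the deposited intensities.

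Gene symbols come from the platform annotation, in which 34945 probe sets had 1 symbol, 932 several and 9211 none, and 64 controls were left out. Probe sets were kept where at least 6 arrays exceeded their 40th percentile (27167), and each gene is its brightest kept probe set. Groups were compared on log2(signal + 16) in limma 3.58.1 under R 4.3.3, by a two-sided moderated test with group as the only term and a Benjamini-Hochberg threshold of 0.05, once over genes and once over probe sets. The fit was tested on simulated data. Promoter windows came from RefSeq. Figures were drawn with matplotlib 3.10.9.

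In each complex up to 3 risen and 3 fallen genes were given by array, and paralogues were named together. Other lists gave at most 2 risen and 2 fallen genes, apart from those named for their probe sets. Sdhd, Ndufa1 and the genes named for a second probe set were chosen after their values were seen. The members and lists were chosen with earlier results of these data known. Alternatives were other scalings, pseudocounts of 1 and 64, filters, probe set choices, variance models, a replicate block and arrays left out. Leaving out 2 arrays together, and the ratios of paralogues, were added after the data were seen. Replicate numbers did not pair the samples: of 6 same-numbered pairs, 2 had deviations correlated above 0.1 (-0.24 to 0.31), and no arrays held identical values.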

Additional observations from a re-analysis of the deposited data

Results flagged for a closer look

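In 128 groups of 6 arrays, 18 single values stood apart from the rest by Dixon's criterion, and chance gives about 1 in 20. Of these, 9 were IL3 replicate 5. On that array the mean log2 signal was 12.90 over the subunit genes (others 12.69 to 12.73), 12.86 over complex I, 12.79 over complex III and 13.67 over complex V. Its signals were 8498 for Ndufa6 (others 6330 to 7018), 7241 for Ndufa5 (4804 to 5534), 8412 for the second Atp5d probe set (6554 to 7056) and 8347 for the carrier gene Slc25a4 (6219 to 6605), all high. Cox7a2l was low on it, at 11601 (16328 to 18510).

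IL3+SCF replicate 1 was low for Cox7a2l on all 3 probe sets, at 17052 (others 20952 to 22824), 14386 (17188 to 18792) and 10771 (13317 to 14743), and high for Idh3a, at 3108 (1986 to 2341). The weak probe set of Ndufa3 read 250 on IL3+SCF replicate 2 (320 to 368) and that of Uqcrq 425 on IL3+SCF replicate 4 (246 to 294). Uqcc3 read 3281 on IL3 replicate 2 (3564 to 3687), Ppargc1b 180 on IL3 replicate 1 (248 to 279) and Coq2 1339 on IL3+SCF replicate 5 (1600 to 1719).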

How the results depend on the processing

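The main counts were 8 subunit genes higher and 3 lower, and 16 probe sets higher and 12 lower. Genes higher were 2 after median centring of arrays, 4 under the replicate block, 4 without IL3 arrays 3 and 6, and 6 to 13 with 1 array left out. The share of all genes called in either direction was 24.3%, 29.1% and 26.9% in the first 3, and 31.5% to 38.6% in the last. Probe sets higher were 4 after median centring, 7 with no filter, 25 with array weights, 5 under the replicate block, 4 without IL3 arrays 3 and 6, and 10 to 24 with 1 array left out (10 without IL3+SCF replicate 2). Genes lower were 8 when probe sets of a gene were averaged, 8 when its most variable probe set was taken, and 3 to 6 with 1 array left out. Under both probe set choices Ndufa3 (-0.22 and -0.71) and Ndufs4 (-0.22 and -1.11) turned lower, and with the most variable one Coq10b had -0.12 and Mrpl48 -0.57, which follows from the probe sets used. Under the block the calls of Sdhb, Uqcrh, Atp5pb and Cox4i1 were lost (adjusted p = 0.0684 for Atp5pb and 0.0764 for Cox4i1). For the other changed counts the cause was not tested. The 3 lower genes were called in every setting run, and the risen Cox7a2l and Ndufa6 too. Over the settings, risen and fallen genes ranged from 3 to 12 and 2 to 6 for assembly factors. They ranged from 0 to 1 and 2 to 6 for coenzyme Q synthesis and 5 to 15 and 5 to 13 for mitochondrial ribosomes. For biogenesis they were 1 to 3 and 2 to 5, and for import 1 to 4 and 2 to 4. For the tricarboxylic acid cycle they were 0 to 2 and 1 to 4, and for carriers 1 to 3 and 0 to 2. For the further subunits, carriers and related genes they were 0 to 2 each. Signals near the dim level and 6 arrays a group limit the precision.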
